A study of Mus musculus with 8 samples.

Results

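The 9 genes described here, Meis1, Prdm16, Mllt3, Gfi1, Gfi1b, Erg, Gata2, Runx1 and Hlf, encode nuclear factors known for their roles in hematopoietic stem cells (HSCs). They were taken as a list of names, and every non-control probe whose gene name in the scanner files is on the list was used. This gave 17 probes of 41174, and 9 genes of 27600 gene names on the array. Bone marrow HSC RNA was measured on 8 Agilent 1-colour arrays: 3 of NrasG12D/G12D HSCs, with both Nras alleles mutant, 3 of NrasG12D/+ HSCs, with 1 mutant and 1 normal allele, and 2 of Nras+/+ HSCs, the controls. All mice are given as strain B6. The sources used here do not give their age or sex, the sorting stain, any Cre driver or the number of animals per sample. A p-value therefore covers the spread among these RNA samples, which may be technical. Nras is a small GTPase that relays growth factor signals, and the G12D form is slow to switch off.

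HSCs keep themselves and the whole blood system going by balancing self-renewal against differentiation. A small network of transcription factors, many of which bind the same enhancers, holds that balance. Meis1, Prdm16 and Hlf are best known from the stem cell end of the hierarchy, Erg, Runx1 and Gata2 from the core network shared with the first blood cells of the embryo, Gfi1 and Gfi1b as repressors that restrain cycling and steer lineages, and Mllt3 as a chromatin reader in complexes that promote transcript elongation.

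The probes decide what can be said of each gene, so the stretches that matter are shown first, read from the scanner files 5′ to 3′, with runs of 4 or more G in capitals. Mllt3 has 5 probes. The first pair below overlap: the last 40 bases of A_52_P619007 are the first 40 bases of A_51_P394484, so they differ in where the probe starts, and A_52_P619007 begins with a run of 6 G. Bases 1 to 30 of each are shown, and bases 8 to 37 of the third, A_52_P530665.
Mllt3 A_52_P619007: GGGGGGagtttcttgtccttgttgtacctt
Mllt3 A_51_P394484: gttgtacctttgttttgaaactagaaatct
Mllt3 A_52_P530665: tgaaGGGGGcGGGGGaGGGGGGtaccacac
The files place A_52_P619007 at chr4:87243929-87243988 and A_51_P394484 at chr4:87243909-87243968, both on the minus strand, with no genome build named. They place only 31 of the 60 bases of A_52_P530665, at chr4:87241139-87241169.

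The next set are the tested probes of Runx1, Meis1, Gfi1b and Erg, shown because their values carry the comparisons below. The Runx1 probe is whole and is placed over a span of 30453 bases (chr16:92502617-92533069), far more than its 60 bases. The Meis1 probe is whole (chr11:18911247-18911306). Of the Gfi1b probe (chr2:28431471-28431530) and the Erg probe (chr16:95468434-95468493) the first 30 bases are given. All 4 are on the minus strand, and none has a run of 4 G.
Runx1 A_52_P202358: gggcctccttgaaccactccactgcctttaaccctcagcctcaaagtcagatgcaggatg
Meis1 A_52_P670612: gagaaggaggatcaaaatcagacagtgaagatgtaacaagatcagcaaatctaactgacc
Gfi1b A_51_P370678: agccatgatagtagaagcctgctcctatca
Erg A_52_P499821: gaggactgggagcagtagtattcagaacca

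Not all members could be measured. Signals are given as scaled signal, the Agilent processed signal multiplied on each array so that all 8 arrays share 1 level of their brighter probes, and a spot counted as measured where the scanner software marked it well above background. Of the 17 probes, 4 were measured on all 8 arrays (23.5%, against 16% of all probes on the array), 7 on some and 6 on none (35.3%, against 43.3%). Gfi1 and Gata2 were measured on no array. The Gfi1 probe, for the repressor that holds HSCs out of the cell cycle, read between 1.15 and 3.29. The Gata2 probes, for a factor HSCs need for their expansion, read between 1.26 and 8.95. The single probe of Hlf, a PAR bZIP factor, was measured on NrasG12D/+ replicate 1 alone, at 13.6, and read between 1.84 and 11.2 on the other arrays. The lowest scaled signal that passed was 5.53 on that array and 5.83 to 15.0 on the others. These 3 genes therefore have a bound rather than a level, and were not tested.

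**Figure D1:**
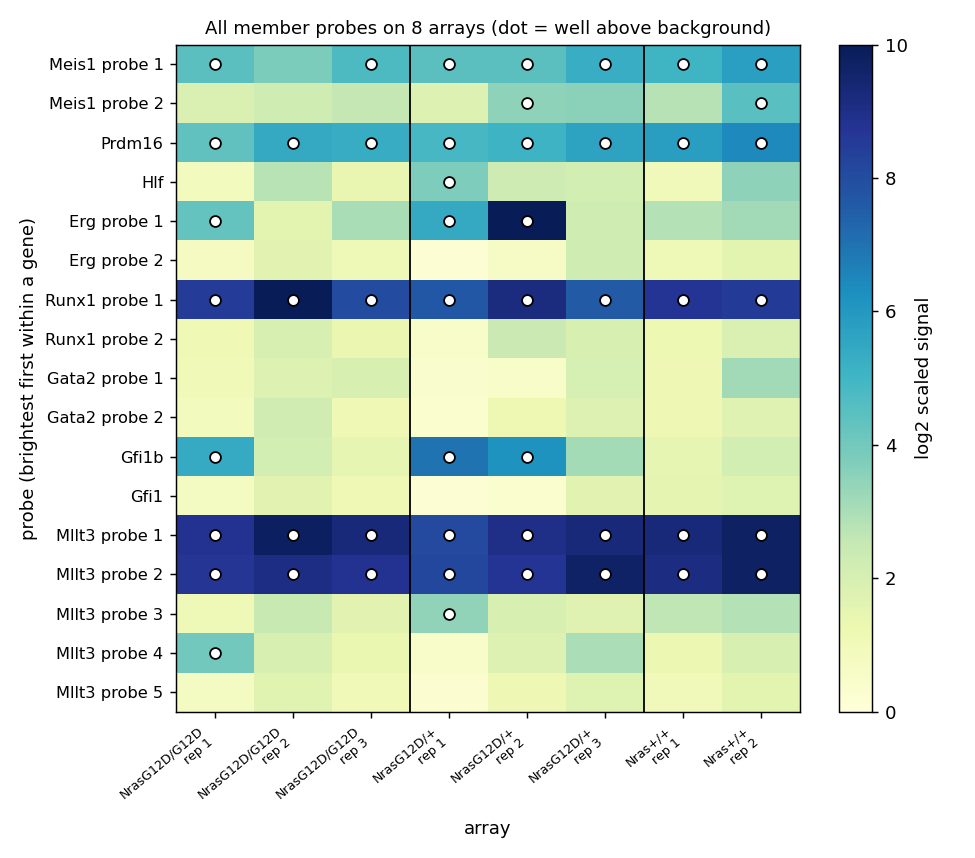
Log2 scaled signal of all 17 probes of the 9 genes (rows) on the 8 arrays (columns, grouped by genotype), with a dot where the spot was well above background. Prdm16, 1 Runx1 probe and 2 Mllt3 probes have a dot on all 8 arrays, the Gfi1 and Gata2 probes on none, and Erg and Gfi1b have theirs on the same 3 arrays.

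A probe measured on at least 2 arrays was the minimum for a test, which 6 of the 9 members had: Meis1, Prdm16, Mllt3, Runx1, Gfi1b and Erg. Gfi1b and Erg reached it through mutant arrays alone. The arrays differed in how many members they measured: 6, 3 and 4 on the NrasG12D/G12D arrays, 7, 6 and 4 on the NrasG12D/+ arrays, and 4 on each Nras+/+ array. Over all spots the share well above background was 26% to 30.3% on NrasG12D/G12D arrays, 28.5% to 42.4% on NrasG12D/+ arrays, and 30.8% and 36% on Nras+/+ arrays. The arrays came on 2 slides. On slide 1 were NrasG12D/+ replicates 1 and 2 beside the Nras+/+ pair, and the other 4 arrays were on slide 2. No slide held both Nras+/+ and NrasG12D/G12D arrays. Direct differences between these genotypes therefore cannot be told apart from differences between the slides. As a check of the cell type, 7 to 11 of 14 HSC surface and identity genes were measured per array, among them Ly6a, Slamf1, Esam and Fgd5 on all 8, while Kit was measured on 1 array, and Procr and Tek on none. In such bulk samples fewer cells of a type and less RNA per cell cannot be told apart.

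Meis1 and Prdm16, factors of the self-renewing stem cell state, had their lowest group means in NrasG12D/G12D and their highest in Nras+/+. Meis1 is a homeodomain protein that binds DNA with Pbx and Hox partners. Its tested probe read 22.2, 14.1 and 26.8 in NrasG12D/G12D HSCs, 22.2, 21.9 and 39.1 in NrasG12D/+ HSCs, and 33.5 and 53.7 in Nras+/+ HSCs. All 3 NrasG12D/G12D arrays lay below both Nras+/+ arrays, while NrasG12D/+ replicate 3 lay between the 2 Nras+/+ arrays. The value of 14.1 was the only one not well above background. The log2 difference was -1.06 (SE 0.71) for NrasG12D/G12D against Nras+/+, -0.67 (SE 0.71) for NrasG12D/+ against Nras+/+ and -0.39 (SE 0.64) for NrasG12D/G12D against NrasG12D/+. The second Meis1 probe, which shares no stretch over 5 bases with the first, was measured on NrasG12D/+ replicate 2, at 11.4, and Nras+/+ replicate 2, at 22.8, and on no NrasG12D/G12D array, where it read 3.66 to 5.82.

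Prdm16, a zinc finger and PR domain protein required for HSC maintenance, was measured on all 8 arrays by its single probe, of whose 60 bases the files place only 5 (chr4:153159925-153159929, minus strand). It read 20.7, 42.5 and 40.5 in NrasG12D/G12D HSCs, 28.8, 33.9 and 49.8 in NrasG12D/+ HSCs, and 55.5 and 87.1 in Nras+/+ HSCs. All 6 mutant arrays lay below both Nras+/+ arrays, and the mutant genotypes overlapped. The mean was 34.6 ± 12.1 in NrasG12D/G12D (SD, n = 3), 37.5 ± 10.9 in NrasG12D/+ (SD, n = 3) and 71.3 ± 22.4 in Nras+/+ (SD, n = 2). The log2 difference from Nras+/+ was -1.08 (SE 0.72) in NrasG12D/G12D and -0.93 (SE 0.72) in NrasG12D/+, with an adjusted p in limma of 0.735 and 0.814. The median of all 15038 genes tested was itself -0.44 and -0.26 in these comparisons. Set against it, Prdm16 stood at -0.64 in NrasG12D/G12D and -0.67 in NrasG12D/+, and Meis1 at -0.62 and -0.41. Without Nras+/+ replicate 1 the relative value of Prdm16 in NrasG12D/+ was -1.04, and without NrasG12D/G12D replicate 1 that in NrasG12D/G12D was -0.39. With normexp background correction Prdm16 stood at -0.32 in NrasG12D/G12D and -0.27 in NrasG12D/+, and Meis1 at -0.17 and -0.10. Of the HSC surface and identity list, 9 of 11 genes tested had a lower mean in NrasG12D/G12D than in Nras+/+ and all 11 in NrasG12D/+, with 0 past the threshold in each. Since the median of all genes was below 0 too, the median of this list relative to it was -0.13 in NrasG12D/G12D and -0.49 in NrasG12D/+. Their summed signal was 484, 1276 and 811 in NrasG12D/G12D, 454, 1137 and 728 in NrasG12D/+, and 1069 and 1380 in Nras+/+. The part of cell composition in the Meis1 and Prdm16 values was not tested.

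**Figure D2:**
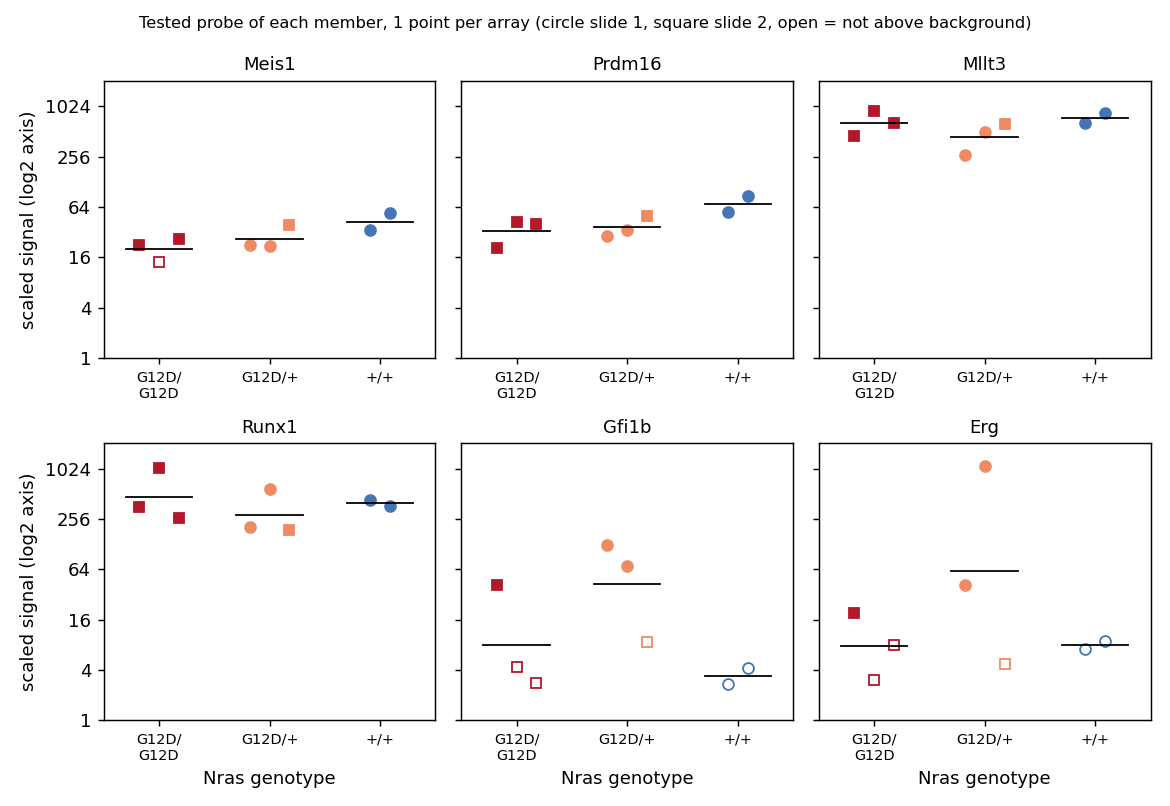
Scaled signal (log2 axis) of the tested probe of each of the 6 members, 1 point per array by Nras genotype, with the mean of the log2 values as a bar. Filled points are well above background, circles are slide 1 and squares slide 2. Prdm16 lies lower on all 6 mutant arrays than on both Nras+/+ arrays, and Gfi1b and Erg are measured on 3 arrays each.

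Mllt3 and Runx1 each had a probe measured on all 8 arrays, with the lowest group mean in NrasG12D/+. Mllt3, also known as Af9, is a YEATS domain protein of the super elongation and Dot1l complexes that is known in human HSCs as a maintenance factor. Its tested probe, A_52_P530665, read 452, 889 and 646 in NrasG12D/G12D HSCs, 266, 501 and 620 in NrasG12D/+ HSCs, and 636 and 851 in Nras+/+ HSCs. All 3 NrasG12D/+ arrays lay below both Nras+/+ arrays, replicate 3 by a small margin, and NrasG12D/G12D overlapped with both. The log2 difference was -0.21 (SE 0.73) for NrasG12D/G12D against Nras+/+, -0.76 (SE 0.73) for NrasG12D/+ against Nras+/+ and 0.55 (SE 0.65) for NrasG12D/G12D against NrasG12D/+. The probe A_52_P619007 read 418, 538 and 450 in NrasG12D/G12D, 281, 428 and 842 in NrasG12D/+, and 562 and 864 in Nras+/+. By this second probe the NrasG12D/+ arrays overlapped with Nras+/+, and all 3 NrasG12D/G12D arrays lay below both Nras+/+ arrays, with a log2 difference of -0.58.

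The probes of Mllt3 disagreed on whether the transcript was measured at all. Both probes measured on all 8 arrays hold the run GGGGGG. The other 3 hold none, and were measured on 1, 1 and 0 arrays. A_51_P394484, with 40 bases in common with A_52_P619007 and without its run of G, was measured on NrasG12D/G12D replicate 1, at 15.9, and read 1.43 to 7.99 on the other 7 arrays. Of all 129 probes on the array with GGGGGG, 112 were measured on all 8 arrays (86.8%), against 15.8% of the 41045 probes without it. The share was higher the longer the run: 18.9% of probes whose longest run was 3 G, 29.1% at 4, 52% at 5 and 86.6% at 6. Among probes of 55% to 70% GC the share was 88.9% with GGGGGG (18 probes) and 51.1% without (2984 probes). Runs of other bases stood at 40.4% for CCCCCC, 14.8% for AAAAAA and 13.7% for TTTTTT. Whether the run of G contributes to the Mllt3 signal was not tested, and without such probes Mllt3 had no probe measured on 2 arrays.

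**Figure D3:**
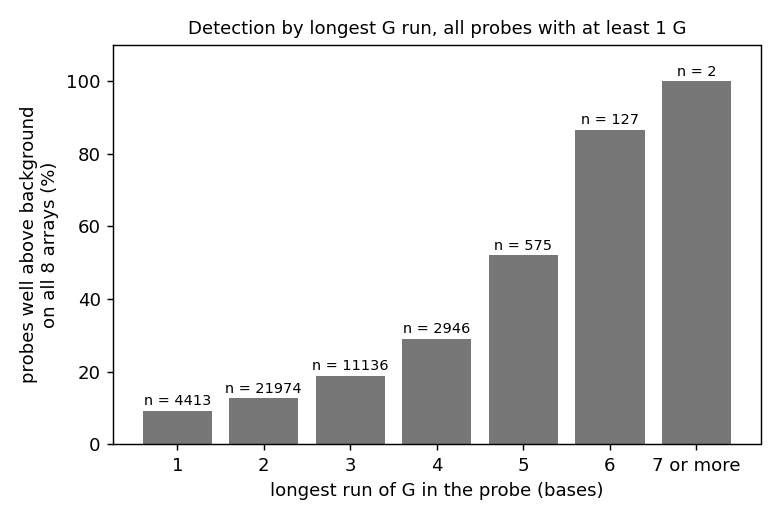
Share of probes well above background on all 8 arrays (y axis, percent) by the longest run of G in the probe (x axis, bases), with the number of probes above each bar. The share is 9.25% at a run of 1 and 86.6% at a run of 6, the length that both Mllt3 probes measured on all 8 arrays hold.

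Runx1, the DNA-binding subunit of core binding factor and a gene that blood formation cannot start without, read 357, 1047 and 263 in NrasG12D/G12D HSCs, 206, 580 and 191 in NrasG12D/+ HSCs, and 429 and 370 in Nras+/+ HSCs. Single arrays, NrasG12D/G12D replicate 2 and NrasG12D/+ replicate 2, lay above both Nras+/+ arrays, and the other 4 mutant arrays lay below both. The log2 difference was 0.21 (SE 0.87) for NrasG12D/G12D against Nras+/+, -0.49 (SE 0.87) for NrasG12D/+ against Nras+/+ and 0.70 (SE 0.78) for NrasG12D/G12D against NrasG12D/+. Relative to the median of all genes the NrasG12D/+ value was -0.23, and within slide 1, without NrasG12D/+ replicate 3, it was 0.15. The second Runx1 probe was measured on no array and read 1.44 to 5.12.

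Gfi1b and Erg had the widest spread of the members, and were measured on exactly the same 3 arrays: NrasG12D/G12D replicate 1 and NrasG12D/+ replicates 1 and 2. Of the 2104 probes on the array measured on 3 arrays, 182 had these 3. Before scaling, these 3 arrays had the highest level of their brighter probes (log2 8.12, 8.47 and 8.08, against 6.85 to 7.58 on the others). They also had the lowest scaled signal that passed as well above background (7.82, 5.53 and 5.83, against 9.36 to 15.0). Whether this bears on the shared arrays was not tested. Gfi1b, a zinc finger repressor that recruits the Lsd1 demethylase and that erythroid and megakaryocyte development requires, read 41.4, 4.31 and 2.79 in NrasG12D/G12D HSCs, 126, 71.0 and 8.72 in NrasG12D/+ HSCs, and 2.73 and 4.22 in Nras+/+ HSCs. All 3 NrasG12D/+ arrays lay above both Nras+/+ arrays, and NrasG12D/G12D overlapped with both genotypes. The log2 difference was 3.65 (SE 1.42) for NrasG12D/+ against Nras+/+, the largest among the 6 tested members in that comparison, with an unadjusted p of 0.0303 and an adjusted p of 0.814 in limma. Since no Nras+/+ array measured it, the fold was computed against a floor and came to 3.80, with 2 of 3 NrasG12D/+ arrays measured. For this each Nras+/+ array was given the lowest signal that passed as well above background on it, or the value of the probe itself if that was higher. The NrasG12D/+ arrays kept their own values, the unmeasured replicate 3 included, so 3.80 is not a strict lower limit. With normexp background correction the log2 difference was 0.70.

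For NrasG12D/G12D against Nras+/+ the Gfi1b log2 difference was 1.22 (SE 1.42), or 1.67 relative to the median of all genes. It rested on NrasG12D/G12D replicate 1: without that array the relative value was 0.38. For NrasG12D/G12D against NrasG12D/+ it was -2.43 (SE 1.27), or -2.23 relative to the median, and within slide 2, which holds the 3 NrasG12D/G12D arrays and NrasG12D/+ replicate 3, it was 0.23. The background correction bears on the size: with normexp the relative value for NrasG12D/+ against Nras+/+ was 1.07, against 3.91 here. On the 3 arrays that measured Gfi1b, the summed signal of 7 erythroid marker genes was 167 in NrasG12D/G12D replicate 1 and 97.6 and 236 in NrasG12D/+ replicates 1 and 2, against 123 to 226 on the other 5 arrays. The 8 megakaryocyte marker genes summed to 181 on NrasG12D/G12D replicate 1 and to 404 and 368 on NrasG12D/+ replicates 1 and 2, against 361 to 803 on the other 5 arrays. Of these genes Itga2b, Gp1bb and Vwf were measured on 8 arrays, Selp on 4, Gp5 on 1, and Pf4, Gp9 and Ppbp on none. Among the 3 arrays, 2 stood apart in other lists. The 8 endothelial and stromal markers summed to 2298 on NrasG12D/G12D replicate 1, against 73.6 to 843 on the other 7 arrays. Of these, Col1a2 was measured on 8 arrays, Col1a1 and Cxcl12 on 6, Pecam1 on 5, Pdgfrb on 1, and Cdh5, Kdr and Lepr on none. The 12 neutrophil and monocyte markers summed to 46060 on NrasG12D/+ replicate 1, against 217 to 2204 on the other 7 arrays. Nearly all of that sum came from Mpo, at 31797, and S100a9, at 13792. Among the rest of the list Csf1r was measured on 8 arrays, Lyz2 and Ly6c1 on 7, Elane on 6 and Ctsg on 5. Prtn3 and Ltf were measured on 2, Itgam on 1, and S100a8 and Camp on none. Whether these markers bear on the Gfi1b and Erg values was not tested; without NrasG12D/+ replicate 1 the relative Gfi1b value for NrasG12D/+ against Nras+/+ was 3.08.

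Erg, an ETS family factor that HSC self-renewal depends on, read 19.3, 3.01 and 8.06 in NrasG12D/G12D HSCs, 42.0, 1110 and 4.78 in NrasG12D/+ HSCs, and 7.06 and 8.88 in Nras+/+ HSCs. NrasG12D/+ replicate 2 alone was far above the others, and all 3 genotypes overlapped. The log2 difference was -0.03 (SE 1.92) for NrasG12D/G12D against Nras+/+, 2.94 (SE 1.92) for NrasG12D/+ against Nras+/+ and -2.97 (SE 1.72) for NrasG12D/G12D against NrasG12D/+. The mean of NrasG12D/+ was 5.40-fold that of Nras+/+ against the same floor, although replicate 3 lay below both Nras+/+ arrays. This is not a strict lower limit either, since the unmeasured replicate 3 kept its own value. With normexp the log2 difference was 1.48, against 2.94 here. Relative to the median of all genes the log2 difference was 3.19. It rested on NrasG12D/+ replicate 2: without that array it was 1.12, and without replicate 3 it was 5.13. Between the mutant genotypes the relative value was -2.77, and within slide 2 it was 1.07, with an adjusted p in limma of 0.977. The second Erg probe, which shares no stretch over 7 bases with the first, was measured on no array and read 1.16 to 4.81.

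The Gfi1b promoter is shown for reference, as the 250 bases before the gene's start in RefSeq (build GRCm38.p6, chr2:28621983-28622232, minus strand). All 9 members matched an entry in that table. Capitals mark matches, on either strand, to TGATAA, a core of GATA factor sites, and to AAATCA, a core of Gfi1 family sites, which do not overlap.
Gfi1b promoter: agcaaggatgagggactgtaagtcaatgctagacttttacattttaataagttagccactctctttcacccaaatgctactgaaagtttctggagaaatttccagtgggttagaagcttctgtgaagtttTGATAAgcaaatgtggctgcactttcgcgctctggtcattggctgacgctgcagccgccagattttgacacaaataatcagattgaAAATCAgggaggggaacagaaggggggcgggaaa
Each has 1 match here. Of all 32851 promoters of this length, 7.94% hold TGATAA and 12.4% hold AAATCA. Cores of ETS factors (AGGAAG), Runx1 (TGTGGT) and Meis1 (TGACAG) have no match in this window.

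The spread between arrays of 1 genotype differed widely among the tested members. The within-group SD on the log2 scale was 0.48 for Meis1, 0.49 for Prdm16, 0.52 for Mllt3 and 0.87 for Runx1, against 1.85 for Gfi1b and 2.64 for Erg. The median over all genes tested was 1.06, and 0.92 over the 5924 genes measured on all 8 arrays. Of these 5924 genes, 8.05% had a smaller spread than Meis1, 9.23% than Prdm16 and 97.4% than Erg.

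Across the list, no member passed an adjusted p of 0.05 in limma in any of the 3 comparisons. For NrasG12D/G12D against Nras+/+ this was 0 of 6, against 0% of all 15038 genes. At an unadjusted p under 0.05 it was also 0 of 6, against 6.52% of all genes, and the lowest adjusted p of a member was 0.735, for Prdm16. Of the 6, 2 (Meis1 and Prdm16) lay lower on all NrasG12D/G12D arrays than on both Nras+/+ arrays and 0 lay higher, while 22% of all genes lay lower and 5.83% higher in this way. For NrasG12D/+ against Nras+/+ the count was 0 of 6 (0% of all genes), and 1 of 6, Gfi1b, at an unadjusted p under 0.05, against 4.75% of all genes. In this comparison 2 members (Prdm16 and Mllt3) lay lower without overlap, against 15.9% of all genes, and 1 (Gfi1b) lay higher, against 8.82%. Mllt3 did so by its tested probe, while by A_52_P619007 NrasG12D/+ overlapped with Nras+/+, and both probes hold GGGGGG. Gfi1b and Erg reached the test only through mutant arrays, where they are high, so their p and their place in these counts are no support for a difference. For NrasG12D/G12D against NrasG12D/+ the count was 0 of 6 (0% of all genes) and 0 of 6 unadjusted, against 5.95% of all genes, and no member's groups were apart, against 8.56% of all genes lower and 2.66% higher. The median log2 difference of the 6 was -0.12, -0.58 and -0.27 in these comparisons, in the order given, against -0.44, -0.26 and -0.20 for all genes. The first 2 comparisons share the Nras+/+ arrays, so their values are not independent. Counts of 1 or 2 among 6 members are too few to set against these shares.

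**Figure D4:**
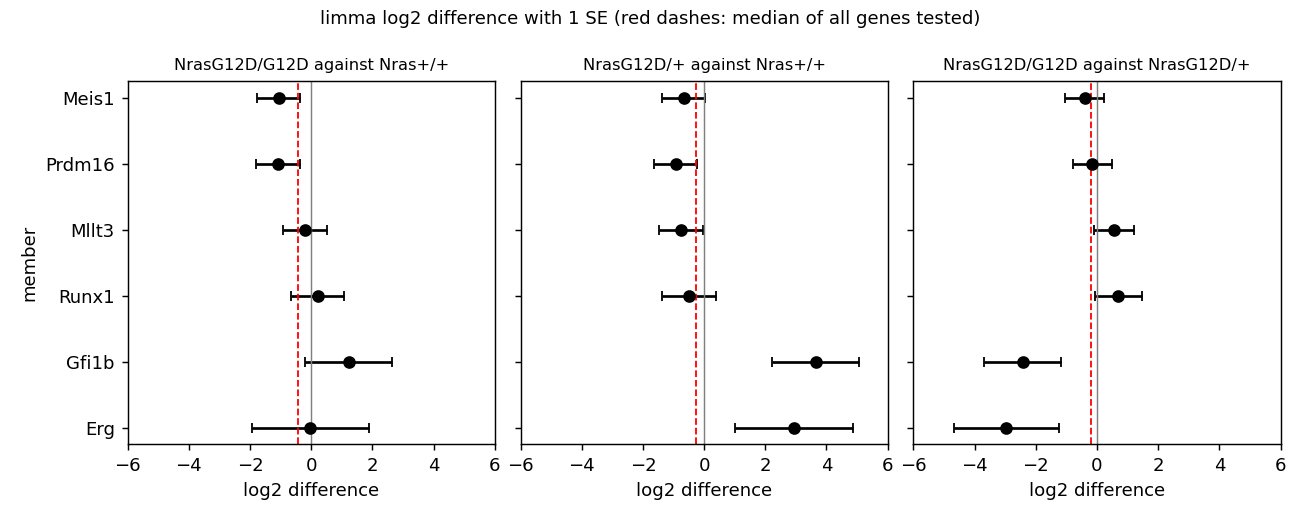
Log2 difference of the 6 tested members with 1 SE from limma (x axis), in 3 comparisons of genotypes, with the median of all genes tested as red dashes. Meis1 and Prdm16 lie below 0 against Nras+/+ in both mutant genotypes, at -1.06 and -1.08 in NrasG12D/G12D, and the SE bars of Gfi1b and Erg are the widest.

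The members work with other factors, so 70 further genes were read from the same fit: other HSC transcription factors, partners and cofactors, paralogs, and factors of differentiated lineages. Of these, 68 were on the array, 50 could be tested, and none passed in any comparison. The values below are those of the brightest probe measured on at least 2 arrays. Pbx3 and Aff1 each have 3 probes on the array, Aff4 has 4 and Pax5 has 2, and their other probes are not shown. For NrasG12D/G12D against Nras+/+, 16 had a higher and 34 a lower mean, where the median log2 difference of all genes was itself -0.44. Under an unadjusted p of 0.05 were 6 (12%, against 6.52% of all genes). Groups were apart for 6 of the 50 in the higher direction (12%, against 5.83% of all genes) and 12 in the lower (24%, against 22%). Both held for 5 genes. Pbx3, a partner of Meis1, read 4.83, 3.21 and 2.07 in NrasG12D/G12D HSCs, measured on none, and 16.3 and 32.6 in Nras+/+ HSCs, a difference of at least 2.18-fold (unadjusted p = 0.00713, adjusted p = 0.725 in limma). Prdm1, the paralog that drives plasma cell differentiation, was likewise measured on no NrasG12D/G12D array and on both Nras+/+ arrays, at least 3.41-fold lower. Pbx3 and Prdm1 reached the test through the Nras+/+ arrays, where they are high, with 1 NrasG12D/+ array each also measured. Their p and their place in these counts are therefore no support for a difference. Ehmt2, a histone H3 methyltransferase that Gfi1 recruits, read 163, 97.6 and 254 in NrasG12D/G12D HSCs and 622 and 1523 in Nras+/+ HSCs (log2 difference -2.61, SE 0.91).

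Aff1, a partner of Mllt3 in the super elongation complex, had the opposite direction. It read 2130, 1183 and 74.9 in NrasG12D/G12D HSCs, 363, 267 and 41.7 in NrasG12D/+ HSCs, and 59.0 and 11.4 in Nras+/+ HSCs, with a log2 difference of 4.46 (SE 1.56) for NrasG12D/G12D against Nras+/+. The Nras+/+ value of 11.4 was not well above background. Aff4, the paralog of Aff1, was named between the mutant genotypes, at 22.3, 86.9 and 232 in NrasG12D/G12D HSCs and 18.9, 13.9 and 13.0 in NrasG12D/+ HSCs (log2 difference 2.35, SE 0.92). The NrasG12D/+ value of 13.0 was not well above background. Aff4 was the only 1 of 50 under an unadjusted p of 0.05 between the mutant genotypes (2%, against 5.95% of all genes). Of the 50, 23 had a higher and 27 a lower mean, where the median log2 difference of all genes was -0.20.

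Nkx2-3, a homeodomain factor of the HSC list, was lower in both mutant genotypes by its values, 13.5, 17.7 and 12.1 in NrasG12D/G12D HSCs and 13.4, 15.9 and 22.1 in NrasG12D/+ HSCs, against 35.6 and 91.8 in Nras+/+ HSCs. The NrasG12D/G12D value of 17.7 was not well above background. All 6 mutant arrays lay below both Nras+/+ arrays, and the adjusted p was 0.725 for NrasG12D/G12D and 0.814 for NrasG12D/+. Pax5, the B cell commitment factor, read 70.1, 20.3 and 26.4 in NrasG12D/+ HSCs and was measured on neither Nras+/+ array, a difference of at least 2.75-fold. Pax5 reached the test only through mutant arrays, where it is high. Its p and its place in the count below are therefore no support for a difference. For NrasG12D/+ against Nras+/+, 22 of the 50 had a higher and 28 a lower mean, where the median log2 difference of all genes was -0.26. Under an unadjusted p of 0.05 were 2 (4%, against 4.75% of all genes).

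By list, the median log2 difference for NrasG12D/G12D against Nras+/+ was -0.55 for the 17 other HSC transcription factors tested, -0.09 for the 16 partners and cofactors, -0.72 for the 8 paralogs and -0.12 for the 9 lineage factors. The median over all genes tested was -0.44. For NrasG12D/+ against Nras+/+ the list medians were -0.20, -0.32, -0.90 and 0.01, against -0.26 over all genes. Gata1, the erythroid paralog of Gata2, was measured on NrasG12D/G12D replicate 3, at 20.0, NrasG12D/+ replicate 1, at 9.56, and both Nras+/+ arrays, at 16.2 and 22.9. It was thus measured on 1 of the 3 arrays that measured Gfi1b.

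The profile of each member measured on at least 6 arrays was set against the other genes measured on all 8 that kept a value on each array once spots with an outlier flag were dropped, by the root mean square difference of log2 values centred on each gene's mean over the 8 arrays. The genes closest to Prdm16 were Rbm15b (0.13) and 1700017N19Rik (0.14), with a median over 5638 genes of 0.97. Those closest to Meis1 were Tulp1 (0.16) and Syde1 (0.19), against a median of 0.996. For Mllt3 they were Esam (0.14), an endothelial and HSC surface protein, and Pakap (0.15), against 0.95, and for Runx1 Mok (0.33) and Olfr1394 (0.35), against 1.15. These are descriptions over 8 arrays that share slides and scaling.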

How the data were processed

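RNA of HSCs was hybridised to 8 Agilent 1-colour arrays. Per the file headers, the deposited processed signal is an intensity from Agilent Feature Extraction 10.5.1.1, corrected for background and spatial trend array by array, without scaling between arrays. The deposited value table holds a ratio, the processed signal over each array's median. Other deposited columns, per the file headers, are flags. Replicate spots were averaged on the log2 scale, and each array was brought to a common 75th percentile, taken over the 6576 probes marked well above background on every array. Genes with a probe well above background on at least 2 arrays were tested (15038, brightest probe) with limma 3.58.1 in R 4.3.3, lmFit and eBayes over 3 groups, two-sided, with Benjamini-Hochberg adjustment at 0.05. Precision is limited by having 2 or 3 arrays a group. The rule named all members, up to 4 genes per list with the lowest unadjusted p under 0.05 and groups that do not overlap, and the 2 closest profiles per member. The members, the gene lists and the rule were chosen with earlier results of these data known. The script was tested on simulated data. Alternatives were normexp, other scalings, the value table, other filters, every probe, slide and replicate blocks, leaving out arrays and, added after seeing the data, leaving out probes with GGGGGG.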

Additional observations from a re-analysis of the deposited data

How the results depend on the processing

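No member and none of the 50 other factors passed under any alternative (0 in each), and the lowest adjusted p of a member was 0.382, for Gfi1b within slide 1. Over all genes tested the count was 0 in each comparison and 0 to 10 under the alternatives, with 10 for NrasG12D/+ against Nras+/+ without Nras+/+ replicate 2. Member differences are given here relative to the median of all genes, which moved between -0.75 and 0.19 with the setting for NrasG12D/G12D against Nras+/+. Of 180 alternative values 164 kept their sign, and of 144 with 1 array left out 137 did. The signs that turned were the following, and the cause was not tested. For NrasG12D/G12D against NrasG12D/+, under the slide block, then inside slide 2 alone, Erg (-2.77) was 1.07 and 1.07, Gfi1b (-2.23) was 0.23 and 0.23, and Prdm16 (0.05) was -0.23 and -0.23. Prdm16 was also -0.058 with normexp, -0.19 with genes measured on all 8 arrays and -0.23 with no filter. Runx1 for NrasG12D/+ against Nras+/+ (-0.23) was 0.0062 with normexp and 0.15 with the slide as a block or within slide 1. Mllt3 for NrasG12D/G12D against Nras+/+ (0.24) was -0.32 with quantile normalization, -0.016 with no filter and -0.22 with the slide as a block. That block, which for this comparison rests on the NrasG12D/+ arrays alone, also moved Gfi1b (1.67) to 5.41 and Erg (0.41) to 6.22. With 1 array left out, Runx1 for NrasG12D/+ against Nras+/+ ranged between -0.72 and 0.15, Erg for NrasG12D/G12D against Nras+/+ between -0.33 and 1.24, and for NrasG12D/G12D against NrasG12D/+ Meis1 between -0.36 and 0.19 and Prdm16 between -0.039 and 0.31. Same-numbered arrays did not deviate together (correlations of -0.10 to 0.09). With 2 or 3 arrays a group this cannot exclude that they were prepared together, and the labels do not say. The main fit did not pair them. With the replicate block 0 members and 0 other factors passed, and Runx1 for NrasG12D/+ against Nras+/+ was 0.17. The dim signal over background limits Gfi1, Gata2, Hlf, Gfi1b and Erg to bounds on most arrays.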
